A study of Mus musculus with 2 samples.

Results

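TNF superfamily costimulatory ligands are the membrane-bound or shed proteins with which antigen-presenting cells sustain an activated T cell after the first contact. OX40 ligand (*Tnfsf4*) binds OX40, 4-1BB ligand (*Tnfsf9*) binds 4-1BB, CD70 (*Cd70*) binds CD27 and GITR ligand (*Tnfsf18*) binds GITR, and OX40 ligand on dendritic cells (DCs) is best known for its part in Th2 priming. BAFF (*Tnfsf13b*) is a survival factor of B cells and TRAIL (*Tnfsf10*) a ligand of death receptors. The 6 genes were taken as a fixed list, and 5 of them have a column among the 18049 genes deposited for both libraries. *Tnfsf18* has none, and its level was not analysed here.

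The data are CITEseq, a droplet method that reads the 3′ mRNA and DNA-barcoded surface antibodies of the same cell, from MHCIIhi CD11c+ B220- cells sorted out of lymph nodes of B6 mice. The naive library came from unimmunized mice and the papain library from mice that had received ovalbumin (OVA) plus papain, a cysteine protease that provokes type 2 immunity, in both rear footpads 1 day earlier. There was 1 library per condition and the number of mice behind each is not given in the sources used here, so no test between conditions was possible. The labels name popliteal nodes for both libraries, whereas the methods of the study take popliteal nodes for papain and pooled skin-draining nodes for naive mice, so lymph node site and immunization cannot be told apart in any difference between the libraries.

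The 3042 naive and 7306 papain cells with an antibody class from the authors were used. These were Langerhans cells (LCs, 440 naive and 881 papain), type 1 conventional DCs (cDC1s, 578 and 235) and type 2 conventional DCs (cDC2s) of low, intermediate and high surface CD301b. The last 3 classes are called CD301b-lo (658 and 1470 cells), CD301b-int (659 and 1827) and CD301b-hi (707 and 2893). Libraries shared 2 cell barcodes. *Cd207*, the Birbeck granule lectin of LCs, had 45.7 and 58.9 CPM (unique molecular identifiers, or UMIs, per 1000000 UMIs, where each UMI stands for 1 captured mRNA molecule) in naive and papain LCs against 0.290 and 0.163 CPM in all cDC2s. *Xcr1*, the chemokine receptor that defines cDC1s, had 16.9 and 9.44 CPM in cDC1s. *Sirpa*, which encodes CD172a, had 97.3 and 69.9 CPM in all cDC2s against 10.7 and 8.79 CPM in cDC1s. Not every listed marker told the classes apart. *Cd83*, the highest gene of the LC list, had 1930 and 1343 CPM in LCs against 1830 and 1384 CPM in all cDC2s. *Itgae*, of the cDC1 list, had only 0.651 CPM in papain cDC1s. The 7 cDC1 genes summed to 876 and 1249 CPM in cDC1s against 459 and 481 CPM in all cDC2s. *Mgl2*, the gene of CD301b itself, had 44.9 CPM in naive cDC2s and 0.918 CPM in papain cDC2s. The CD301b antibody signal of the CD301b-hi class had medians of 2.13 and 2.27 on the natural log scale of the antibody data. The authors set these classes by that signal, so like medians follow from the classes. They do not show whether surface CD301b differed between the libraries. The classes are those of surface protein and not of *Mgl2* mRNA. In the cDC1 class the CD326 antibody signal differed (median 1.64 in naive and 0.436 in papain cells).

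Levels are given as CPM of the summed UMIs of a class with exact 95% Poisson intervals, and shares of cells with a UMI with exact 95% Clopper-Pearson intervals. Both cover counting error only. They leave out the spread between mice, and since the UMIs of a ligand gather in some cells they are narrower than the spread between cells would allow. A ratio is the log2 of CPM + 1 over CPM + 1, which understates the difference of a low gene, and the plain fold is given beside it. A difference is read against the share of all genes of at least 10 CPM that were at least 2-fold higher or lower in the same comparison. The depth reached from 3637 to 57378 UMIs per naive and from 2682 to 57150 UMIs per papain cell. Levels of different genes were not compared with each other.

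*Tnfsf9* was graded with surface CD301b. In naive cells it had 207 CPM (199 to 215) in CD301b-hi, 145 CPM (138 to 153) in CD301b-int and 118 CPM (111 to 125) in CD301b-lo cDC2s. LCs had 45.3 CPM (39.8 to 51.4) and cDC1s 38.7 CPM (34.8 to 42.8). The order over the 3 cDC2 classes was one of separate intervals, whereas LCs and cDC1s overlapped at the bottom. In papain cells the levels were 194 CPM (190 to 198) in CD301b-hi, 162 CPM (157 to 166) in CD301b-int and 100.2 CPM (95.6 to 105) in CD301b-lo cDC2s. Papain LCs had 86.2 CPM (82.0 to 90.5) and papain cDC1s 44.6 CPM (37.4 to 52.7). The order of the 5 classes was the same as in naive cells, and no neighbours overlapped.

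CD301b-hi over CD301b-lo cDC2s came to 1.76-fold (1.64 to 1.89, log2 ratio 0.81) in the naive library and 1.94-fold (1.84 to 2.04, log2 ratio 0.95) in the papain library. Of all genes tested in this comparison, 0.763% in naive and 0.795% in papain cells were at least 2-fold higher, a size that *Tnfsf9* approached without reaching it. Against all cDC2s, cDC1s had 0.242-fold (0.217 to 0.269) as much *Tnfsf9* in naive and 0.267-fold (0.224 to 0.316) in papain cells. The cells with a UMI followed the levels. In CD301b-hi cDC2s 52.5% of naive (48.7 to 56.2) and 59.1% of papain cells (57.3 to 60.9) had a *Tnfsf9* UMI, against 34.2% and 31.4% of CD301b-lo cells. The T cell reference described with *Tnfsf4* had 4.64% in naive and 3.32% in papain cells. At equal depth it had 9.39% (4.10 to 17.5) in naive cells, where naive LCs had 18.2% (14.1 to 22.9) and cDC1s 15.5% (12.5 to 18.8). Its naive level of 36.2 CPM (28.9 to 44.8) overlapped those of naive LCs and cDC1s. That level rests on 84 UMIs from 11 cells, and 1 cell held 35.7% of them, so its Poisson interval is too narrow. Whether these UMIs came from free RNA or from a DC in the same droplet was not tested. The cDC2 classes lay above the reference on both scales. A positive CD301b-hi cell held 6.37 UMIs on average in naive and 5.74 UMIs in papain cells.

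**Figure D1:**
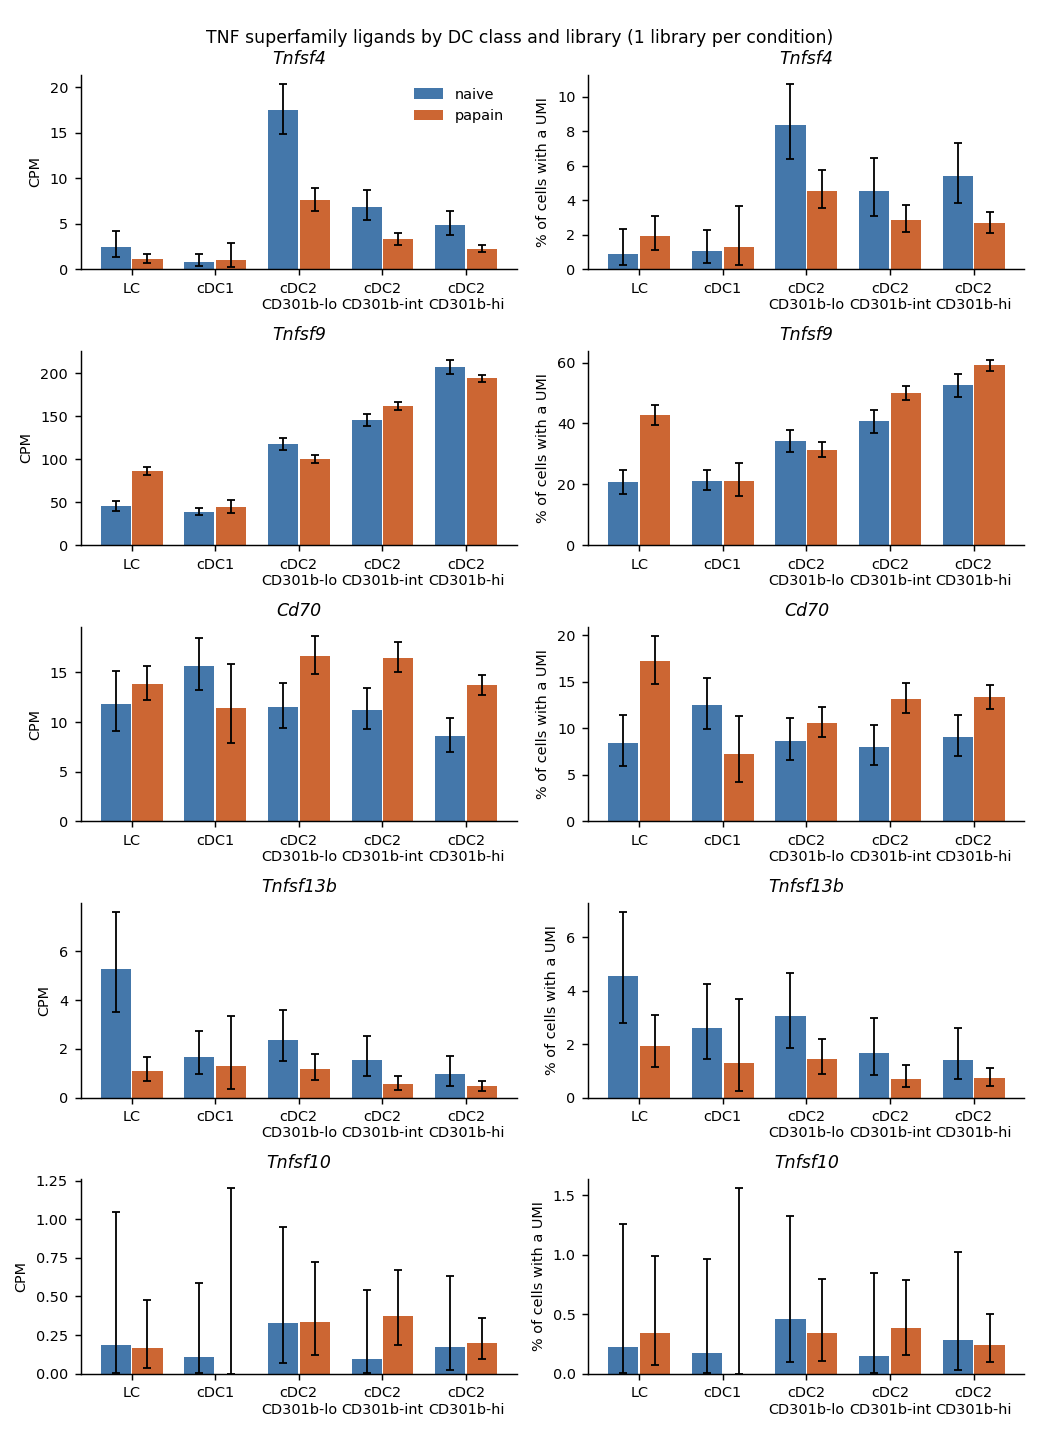
Level in CPM (left) and percent of cells with a UMI (right) of the 5 ligands with a column, for the naive (blue) and papain (orange) libraries in each of the 5 antibody classes. Bars are single values of 1 library each and the lines are exact 95% counting intervals. *Tnfsf9* climbs from CD301b-lo to CD301b-hi cDC2s in both libraries, while *Tnfsf4* is highest in CD301b-lo cDC2s. The naive share of cells with a *Tnfsf4* UMI is 4.55% in CD301b-int and 5.37% in CD301b-hi cells, with overlapping intervals.

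Between the libraries, *Tnfsf9* differed most in LCs. Papain LCs had 1.90-fold the naive level (1.66 to 2.19, log2 ratio 0.91), and 42.7% of papain LCs (39.4 to 46.0) against 20.7% of naive LCs (17.0 to 24.8) had a UMI. Papain LCs were sequenced more deeply, with a median of 18290 UMIs per cell against 10767.5. With each cell thinned to 8392 UMIs, the 10th percentile of depth, the shares were 30.8% of 771 papain and 18.2% of 313 naive LCs, which left out 110 and 127 shallower cells. In the LC comparison 3.93% of 7582 genes were at least 2-fold higher in papain and 2.27% at least 2-fold lower. *Tnfsf9* stayed just under that size.

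In cDC2s the *Tnfsf9* level of both libraries was nearly equal. All cDC2s had 160 CPM in the naive and 167 CPM in the papain library, a ratio of 1.05-fold (1.01 to 1.08). By class the ratio was 0.852-fold (0.790 to 0.920) in CD301b-lo, 1.11-fold (1.05 to 1.18) in CD301b-int and 0.938-fold (0.897 to 0.982) in CD301b-hi cells. The total was above 1 although CD301b-lo and CD301b-hi cells were below it, and CD301b-hi cells were 2893 of 6190 papain cDC2s against 707 of 2024 naive cDC2s. With a weight of 1 for each class the log2 ratio was -0.06, and after scaling to the median ratio of all genes it was -0.01. No direction is therefore given for *Tnfsf9* in all cDC2s. In cDC1s the ratio was 1.15-fold with an interval from 0.941 to 1.41, so a difference was not detectable at this depth.

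*Tnfsf4* had the reverse order over the CD301b classes and was lower in the papain library. Naive CD301b-lo cDC2s had 17.4 CPM (14.9 to 20.4), CD301b-int 6.87 CPM (5.37 to 8.66) and CD301b-hi 4.90 CPM (3.70 to 6.37). The last 2 overlapped and the first stood apart from both. Papain CD301b-lo cDC2s had 7.59 CPM (6.37 to 8.97), CD301b-int 3.30 CPM (2.68 to 4.03) and CD301b-hi 2.25 CPM (1.86 to 2.71). The last 2 again had overlapping intervals, although the ratio between them (0.683-fold, 0.516 to 0.905) lay below 1. However, 1 papain CD301b-int cell held 25 of the 97 UMIs of its class. The shares of cells with a UMI were close, at 2.85% in CD301b-int and 2.66% in CD301b-hi cells, so these 2 classes are not put in order. LCs had 2.45 CPM in naive and 1.09 CPM in papain cells, and cDC1s 0.843 and 0.976 CPM from 8 and 3 UMIs.

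The CD301b-hi level of *Tnfsf4* was 0.281-fold (0.204 to 0.383, log2 ratio -1.64) that of CD301b-lo cells in the naive library and 0.297-fold (0.230 to 0.384, log2 ratio -1.40) in the papain library. In the naive library, where *Tnfsf4* reached 10 CPM, 3.24% of all genes were at least 2-fold lower in CD301b-hi cells, and in the papain library 1.23% were. The papain level was 0.435-fold (0.344 to 0.550, log2 ratio -1.10) the naive one in CD301b-lo, 0.480-fold (0.350 to 0.662) in CD301b-int and 0.460-fold (0.331 to 0.645) in CD301b-hi cDC2s. These 3 folds overlapped. In CD301b-lo cells 5.83% of 7575 genes were at least 2-fold lower in papain and 2.48% at least 2-fold higher, and *Tnfsf4* was the 1 member of the 3 with at least 10 CPM there that was past 2-fold. Over all cDC2s the fold was 0.382 (0.326 to 0.448, log2 ratio -1.18), from 9.30 to 3.55 CPM. It was lower than in each class, since the makeup of the libraries differed. CD301b-lo cells, with the highest *Tnfsf4*, were 1470 of 6190 papain cDC2s against 658 of 2024 naive cDC2s. With equal weight for each class the difference was smaller, as given below.

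Most cDC2s held no *Tnfsf4* UMI. It was found in 55 of 658 naive (8.36%, 6.36 to 10.7) and 67 of 1470 papain CD301b-lo cells (4.56%, 3.55 to 5.75), and the richest 1% of naive CD301b-lo cells held 37.3% of its UMIs. A single cell of 25 UMIs gave 25.8% of the papain CD301b-int count. The share was 6.82% of naive and 3.79% of papain CD301b-lo cells when all cells were thinned to 8392 UMIs. As a reference for free RNA, the cells without a class that carried UMIs of *Cd3e* or *Trac*, genes of the T cell receptor complex, were used. They had a *Tnfsf4* UMI in 0.422% of 237 naive cells (0.011 to 2.33) and in 0 of 241 papain cells (upper limit 1.52%). They had a median depth of 7626 and 6980 UMIs, against 12751 and 11351 in CD301b-lo cells. The *Tnfsf4* shares of naive LCs (0.909%) and cDC1s (1.04%) lay within the interval of that reference and were not told apart from it. Of the 13 UMIs of naive LCs, 69.2% were in 1 cell. Papain LCs had 1.93%, and 0.754% at equal depth. With all cells at 8392 UMIs the reference kept 86 naive cells (0.432%, upper limit 4.20%) and 63 papain cells (none, upper limit 5.69%). Naive CD301b-lo cDC2s, at 6.82% (4.90 to 9.22), lay above that limit. The naive CD301b-int (2.86%) and CD301b-hi (3.28%) and all papain cDC2 classes (1.44% to 3.79%) lay under the limit of their library, which rests on few cells.

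The naive CD301b-lo class also held more T cell, B cell and macrophage transcripts. The summed level of 7 T cell genes was 214 CPM in naive and 180 CPM in papain CD301b-lo cells, and 136 and 120 CPM in CD301b-hi cells. Most of it was *Il7r* (139 and 165 CPM in CD301b-lo cells), and the other 6 genes summed to 74.2 and 15.1 CPM in CD301b-lo and to 14.97 and 9.79 CPM in CD301b-hi cells. The 5 B cell genes summed to 63.3 and 28.8 CPM in CD301b-lo and to 12.9 and 4.59 CPM in CD301b-hi cells, with *Ighm* highest. The 7 macrophage and monocyte genes summed to 95.04 and 33.8 CPM in CD301b-lo and to 37.1 and 16.7 CPM in CD301b-hi cells. The 4 plasmacytoid DC genes went the other way between the libraries, with 294 and 432 CPM in CD301b-lo cells. Without the cells that held a *Cd3e* or *Trac* UMI the *Tnfsf4* log2 ratio of papain to naive CD301b-lo cells was -1.05, and without those with a *Cd79a*, *Cd79b* or *Ighm* UMI it was -0.91. The part of the macrophage transcripts in the result was not tested.

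**Figure D2:**
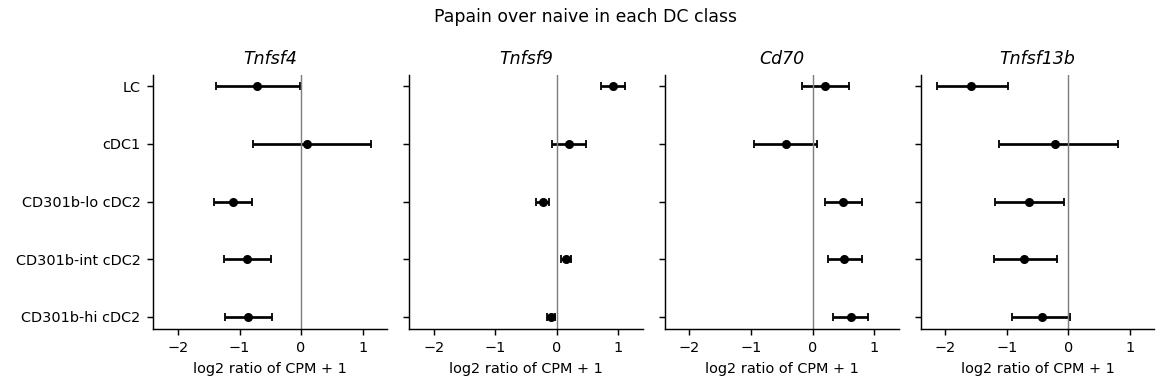
Log2 ratio of papain to naive level (CPM + 1) of 4 ligands in each antibody class, with exact 95% counting intervals that leave out variation between mice. *Tnfsf4* lies below 0 in all 3 cDC2 classes, *Cd70* above 0 in all 3, and *Tnfsf9* above 0 in LCs with values near 0 in cDC2s.

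*Cd70* was the most even of the 3 T cell ligands across classes. In naive cells it had 15.7 CPM (13.3 to 18.4) in cDC1s, 11.9 CPM (9.11 to 15.2) in LCs, 11.5 CPM (9.40 to 13.9) in CD301b-lo, 11.2 CPM (9.27 to 13.5) in CD301b-int and 8.58 CPM (6.97 to 10.5) in CD301b-hi cDC2s. No neighbours in this order were separated by their intervals. In papain cells the order was 16.7 CPM (14.8 to 18.7) in CD301b-lo, 16.5 CPM (15.1 to 18.0) in CD301b-int, 13.8 CPM (12.2 to 15.7) in LCs, 13.7 CPM (12.7 to 14.8) in CD301b-hi cDC2s and 11.4 CPM (7.93 to 15.8) in cDC1s, again without a gap between neighbours. CD301b-hi over CD301b-lo cells came to 0.747-fold (0.562 to 0.993) in naive and 0.822-fold (0.717 to 0.944) in papain cells.

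The papain level of *Cd70* was 1.45-fold (1.16 to 1.83) the naive one in CD301b-lo, 1.47-fold (1.20 to 1.82) in CD301b-int and 1.60-fold (1.29 to 1.99) in CD301b-hi cDC2s. Over all cDC2s it was 1.46-fold (1.29 to 1.65, log2 ratio 0.51), from 10.3 to 15.1 CPM, in a comparison where 2.01% of 7362 genes were at least 2-fold higher and 4.21% at least 2-fold lower. LCs differed by 1.17-fold (0.883 to 1.56) and cDC1s by 0.726-fold (0.487 to 1.05), neither detectable at this depth. For cDC1s 2.25% of genes were at least 2-fold higher in papain and 4.75% lower, and for CD301b-hi cDC2s 1.95% and 3.63%. In all cDC2s 8.60% of naive (7.41 to 9.90) and 12.6% of papain cells (11.8 to 13.5) had a *Cd70* UMI, and after thinning 5.67% and 8.43%. The T cell reference had 1.69% in naive and 1.24% in papain cells. At equal depth the naive reference had 1.39% of 86 cells, with an upper limit of 6.31%. All naive cDC2s (5.67%) lay under that limit, which rests on few cells, and naive CD301b-lo cells (6.42%) just above it. In naive cells, cDC1s had 1.52-fold (1.24 to 1.85) the *Cd70* level of all cDC2s, which was not seen in papain cells (0.755-fold, 0.524 to 1.05). The 6 T cell genes other than *Il7r* summed to 158 CPM in naive and 27.0 CPM in papain cDC1s. Without the cells with a *Cd3e* or *Trac* UMI the papain to naive log2 ratio of *Cd70* in cDC1s was -0.63, against -0.43 with them.

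*Tnfsf13b* was sparse, with 28 UMIs in naive LCs and 4 to 23 UMIs in each other class of either library. Naive LCs had 5.27 CPM (3.50 to 7.61), 3.33-fold (2.02 to 5.41) the level of naive cDC2s. Papain LCs had 1.09 CPM (0.666 to 1.68), a fold of 0.207 (0.110 to 0.381), and all papain cDC2s had 0.612 CPM against 1.58 CPM in naive cDC2s (0.387-fold, 0.261 to 0.577). A *Tnfsf13b* UMI was found in 20 of 440 naive LCs (4.55%) and 17 of 881 papain LCs (1.93%), and in none of the T cell reference cells of either library. At 8392 UMIs per cell the shares of LCs were 2.31% and 0.872%. *Tnfsf13b* was below 10 CPM in every class and did not enter the shares of genes past 2-fold.

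*Tnfsf10* was near its floor in every class. The 3042 naive cells with a class gave 8 UMIs and the 7306 papain cells 30 UMIs. Its highest class level was 0.374 CPM (0.187 to 0.670) in papain CD301b-int cDC2s, and papain cDC1s had none, where the floor of 3 UMIs is 0.976 CPM. All cDC2s had 0.194 CPM in naive and 0.275 CPM in papain cells, a fold of 1.42 (0.575 to 4.21). A difference was not detectable at this depth. The T cell reference cells had 6.46 CPM (3.62 to 10.7) in naive and 3.74 CPM (1.504 to 7.71) in papain cells, with intervals above those of every DC class of the same library.

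The genes lie in pairs or alone in the genome (RefSeq, GRCm38.p6). *Tnfsf9* (chr17:57105287-57107758) and *Cd70* (chr17:57145997-57149777) are 38.2 kb apart on chromosome 17, and *Tnfsf4* (chr1:161395438-161418206) and *Tnfsf18* (chr1:161494657-161505290) are 76.5 kb apart on chromosome 1. *Tnfsf13b* (chr8:10006229-10036000) is on chromosome 8 and *Tnfsf10* (chr3:27317077-27339665) on chromosome 3. Promoter windows of 300 bases were at hand for *Tnfsf18*, *Tnfsf10* and, from separate starts, *Tnfsf13b*. They were searched on both strands for GAAA followed after any 2 bases by GAAA, the core of an interferon-stimulated response element, which 3.44% of 32851 promoter windows of this length held. It occurred in 1 of the 4 windows. That window of *Tnfsf13b*, the ligand with the lowest papain to naive fold in LCs, is printed with the match in capitals. It covers chr8:10006383-10006682 on the plus strand, and the match begins 16 bases before the start site.
Tnfsf13b promoter: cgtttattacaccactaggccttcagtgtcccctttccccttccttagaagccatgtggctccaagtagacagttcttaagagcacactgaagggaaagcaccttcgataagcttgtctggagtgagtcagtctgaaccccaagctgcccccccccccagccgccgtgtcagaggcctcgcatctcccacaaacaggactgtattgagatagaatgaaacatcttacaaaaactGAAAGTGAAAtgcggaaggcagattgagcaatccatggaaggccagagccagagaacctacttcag
A match of letters is a description of the window and not a site of binding. The other start of *Tnfsf13b* (chr8:10006217-10006516), *Tnfsf10* and *Tnfsf18* had no match.

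The shape of the *Tnfsf9* difference between cells of low and high CD301b was described without the class borders. All cDC2s of each library were cut into 5 quintiles of equal size by the CD301b antibody signal. The classes were set by the same signal in the same cells, so the quintiles are no separate support. In naive cells *Tnfsf9* had 123 CPM in the lowest quintile, 105 CPM in the second, 148 CPM in the third, 194 CPM in the fourth and 219 CPM in the highest. In papain cells it had 96.0, 144, 181, 191 and 198 CPM in the same order. The papain values climbed at every step, most of it over the lower 3 quintiles. The naive values fell from the lowest (114.0 to 132) to the second quintile (96.8 to 113.8), with intervals just separate, before they climbed. The lower naive quintiles therefore did not follow the gradient.

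*Tnfsf4* went the other way, mainly at the low end. Its naive levels were 20.1 CPM (16.6 to 24.1) in the lowest quintile, 10.4 CPM in the second, 5.79, 7.82 and 3.81 CPM in the others. Its papain levels were 8.16 CPM (6.76 to 9.76) in the lowest quintile, 2.97 CPM in the second and 3.92, 2.39 and 1.77 CPM in the others. In each library the lowest quintile stood apart from the next. *Cd70* showed no such order in naive cells, with 13.0 CPM in the lowest and 8.70 CPM in the highest quintile and 12.8 CPM in the fourth. In papain cells it went from 18.2 CPM in the second quintile to 11.6 CPM in the highest. Depth moved with the antibody signal, from a median of 10945.5 UMIs per cell in the lowest papain quintile to 16112 in the highest, and with *Tnfsf9* counted at equal depth 26.3% of the lowest and 50.8% of the highest papain quintile had a UMI.

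**Figure D3:**
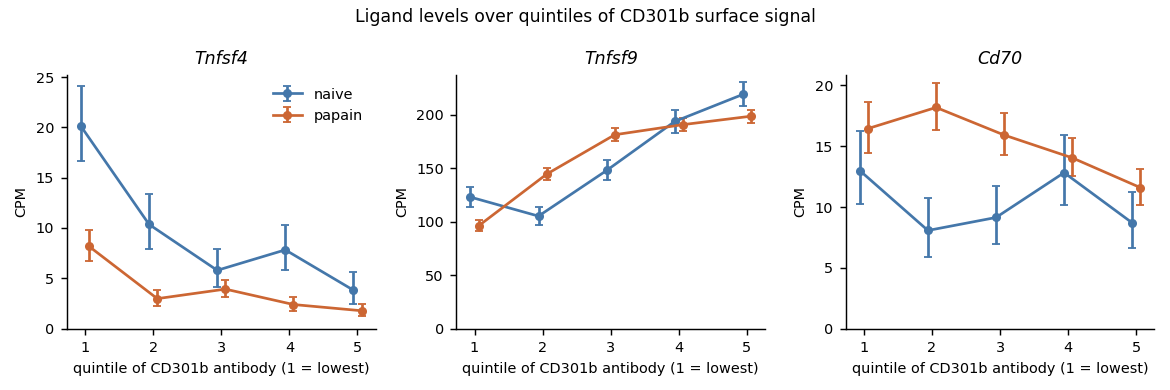
Level (CPM) of *Tnfsf4*, *Tnfsf9* and *Cd70* in quintiles of cDC2s ordered by CD301b antibody signal, naive (blue, 404 or 405 cells each) and papain (orange, 1238 cells each), with exact 95% Poisson intervals. *Tnfsf9* is higher and *Tnfsf4* lower in the highest than in the lowest quintile of both libraries, with a dip of naive *Tnfsf9* at the second quintile and small upturns of *Tnfsf4* in between.

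The cDC2s also carry an mRNA cluster from the authors, numbered 1.1 to 1.7 in naive and 2.1 to 2.9 in papain cells. The clusters were made from the genes of these cells, so their levels are a description only. *Tnfsf9* reached 301 CPM in papain cluster 2.3 (898 cells), the cluster that also had the highest *Cd70* (27.6 CPM), and 234 CPM in naive cluster 1.2 (432 cells). Its lowest levels were 10.96 CPM in papain cluster 2.6 (430 cells) and 42.2 CPM in naive cluster 1.3 (432 cells). Papain cluster 2.6 had 711 CPM of *Ccr7*, the chemokine receptor of migratory DCs, while the other papain clusters had 2846 CPM or more. Other genes of migratory DCs were not low there. *Fscn1* (2213 CPM) and *Ccl22* (1491 CPM) lay within the range of the other papain clusters (1000 to 4226 and 447 to 3379 CPM). Naive cluster 1.5 had the lowest naive *Ccr7* (1389 CPM) and 183 CPM of *Tnfsf9*. Naive cluster 1.3, in contrast, had 3799 CPM of *Ccr7* and was nearly without *Tnfsf4* (2 UMIs) and *Cd70* (3 UMIs).

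*Tnfsf4* had its highest papain levels in clusters 2.7 (375 cells) and 2.9 (216 cells), with 14.1 CPM and 15.2 CPM, of which 50.7% and 69.0% were CD301b-lo cells. *Tnfsf9* was at 48.4 and 34.8 CPM there. In cluster 2.4, 78.5% CD301b-lo, *Tnfsf4* was at 6.70 CPM and *Tnfsf9* at 96.2 CPM. Naive clusters 1.4 and 1.5, with 64.5% and 58.1% CD301b-lo cells, had 14.4 CPM and 14.7 CPM of *Tnfsf4*, the first with 55.6 CPM and the second with 183 CPM of *Tnfsf9*. A CD301b-lo share did not by itself go with *Tnfsf4*, since cluster 1.7 (50 cells, 68.0% CD301b-lo) had 1 UMI of it and cluster 1.6 (55 cells, 18.2%) had 15.1 CPM from 5 UMIs. *Tnfsf13b* gathered in cluster 1.4 (5.34 CPM) and cluster 2.9 (5.55 CPM), and was at 0 in naive clusters 1.2 and 1.7 and in papain clusters 2.2 and 2.7.

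**Figure D4:**
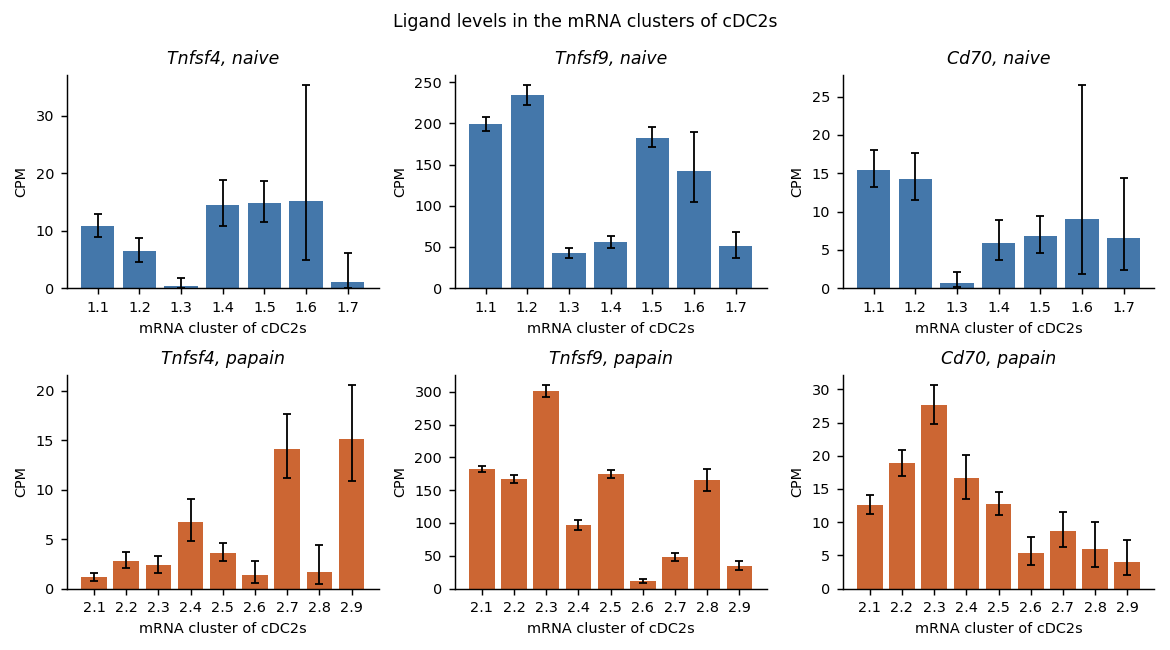
Level (CPM) of *Tnfsf4*, *Tnfsf9* and *Cd70* in each mRNA cluster of cDC2s, naive in the upper and papain in the lower row, with exact 95% Poisson intervals. In the papain library *Tnfsf4* is highest in 2.7 and 2.9 and *Tnfsf9* in 2.3, and 2.6 is low in both.

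In all cDC2s the ligands met in the same cell more often than their shares alone would give. *Tnfsf9* and *Cd70* UMIs were found together in 153 naive cells where 74.3 were expected from the 2 shares, and in 652 papain cells where 390 were expected. *Tnfsf4* and *Cd70* were found together in 35 naive cells against 10.6 expected, and in 57 papain cells against 24.8. *Tnfsf4* and *Tnfsf9* met in 82 naive cells against 52.5 and in 117 papain cells against 97.7. Deep cells hold more UMIs of every gene, and so the count was repeated with all cells thinned to 8392 UMIs. The ratio of observed to expected cells was then 2.14 in naive and 1.77 in papain cDC2s for *Tnfsf9* with *Cd70*, 3.67 and 2.73 for *Tnfsf4* with *Cd70*, and 1.52 and 1.09 for *Tnfsf4* with *Tnfsf9*. For the last pair it was 1.11 and 1.16 within the CD301b-hi class and 0.98 in papain CD301b-int cells. In papain LCs *Tnfsf4* and *Cd70* met in 1 cell against 2.93 expected, below their shares. No test was made of these counts.

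**Figure D5:**
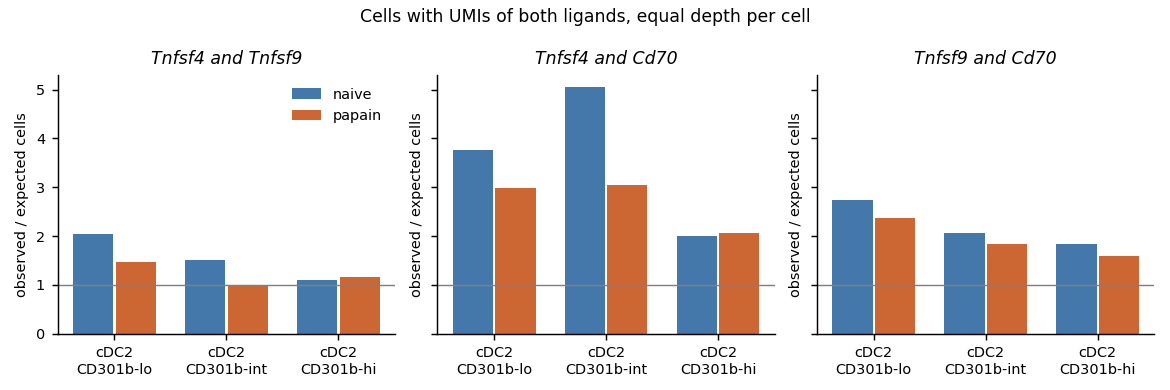
Observed over expected number of cells with UMIs of both ligands at 8392 UMIs per cell, in the 3 cDC2 classes of the naive (blue) and papain (orange) library. The grey line marks 1. The pairs with *Cd70* lie above it in every class shown.

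The genes whose levels ran most like each ligand over the 10 groups (5 classes in 2 libraries) were sought among 8442 genes of at least 10 CPM. For *Tnfsf9* they were *Csrnp1* (Pearson's r = 0.98), *Abcg3* (0.98) and *Ipo5* (0.98). For *Tnfsf4* they were *Gm7206* (0.98), *Vmp1* (0.96) and *Gm43761* (0.96), and for *Cd70* they were *Aimp1* (0.93), *Mrpl11* (0.92) and *Gm10221* (0.92). The level of *Gm7206* moved only between 1947 and 2520 CPM, and reads of the *Gm* genes may be shared with near-identical copies. Among the ligands, r was 0.53 for *Tnfsf4* with *Tnfsf9*, -0.23 for *Tnfsf4* with *Cd70* and -0.20 for *Tnfsf9* with *Cd70*. The 10 groups share libraries and depth, and with this many genes ranked the values are a description.

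The receptors of these ligands are known on T cells and also on DCs. Of 11 receptors and decoy receptors 10 have a column, and 3 had at least 10 CPM in all cDC2s. None of the 3 was past 2-fold between the libraries, where 2.01% of all genes were higher and 4.21% lower by that much. This count does not set the receptors apart from other genes. OX40 (*Tnfrsf4*) had 158 CPM in papain and 95.02 CPM in naive cDC2s (log2 ratio 0.73), 4-1BB (*Tnfrsf9*) 69.5 and 64.7 CPM (0.10), and GITR (*Tnfrsf18*) 49.1 and 36.3 CPM (0.43). The list's median log2 ratio was 0.43, that of all genes 0.05. By class, *Tnfrsf4* was highest in cDC1s (429 CPM in naive and 499 CPM in papain cells). *Tnfrsf4* was past 2-fold in CD301b-lo cDC2s, at 243 CPM in papain and 88.5 CPM in naive cells, as were 2.48% of all genes. In LCs *Tnfrsf9* was past 2-fold as its ligand nearly was, with 186 CPM in papain and 85.2 CPM in naive cells. There 3.93% of all genes were at least 2-fold higher.

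Of 12 other TNF superfamily ligands 10 have a column and 2 had at least 10 CPM in all cDC2s. *Ltb*, which encodes lymphotoxin beta, was past 2-fold lower in papain cDC2s (5.04 against 24.0 CPM, log2 ratio -2.05), as were 4.21% of all genes, and *Tnf* was just short of it (33.0 against 65.9 CPM, log2 ratio -0.98). *Tnfsf12*, the gene of TWEAK, had 7.99 and 8.39 CPM. The T cell reference had 276 CPM of *Ltb* in papain and 235 CPM in naive cells, and the 6 T cell genes other than *Il7r* summed to 13.5 CPM in papain and 41.2 CPM in naive cDC2s. Their part in the *Ltb* difference was not tested. *Tnf*, like *Tnfsf9*, climbed with CD301b, from 40.3 CPM in CD301b-lo to 87.6 CPM in CD301b-hi naive cDC2s and from 19.7 to 39.3 CPM in papain cDC2s.

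Downstream of the receptors, 10 of 11 adaptor genes had at least 10 CPM and none was past 2-fold in all cDC2s, with a median log2 ratio of 0.02. Of all genes 2.01% were past 2-fold higher and 4.21% lower, so this count does not set the adaptors apart. TRAF1 (*Traf1*) had 929 CPM in papain and 842 CPM in naive cDC2s, and the ubiquitin ligases cIAP1 (*Birc2*) and cIAP2 (*Birc3*) had 442 and 431 CPM, and 265 and 324 CPM. All 9 other costimulatory and coinhibitory ligands had at least 10 CPM. Their median log2 ratio was 0.53, that of all genes 0.05, and 8 of 9 were above 0. *Cd200*, a ligand of an inhibitory receptor of myeloid cells, was the 1 past 2-fold higher (148 against 63.9 CPM) and none was past 2-fold lower, where 2.01% and 4.21% of all genes were. *Cd40*, the receptor through which T cells license DCs, had 725 CPM in papain and 377 CPM in naive cDC2s, *Icam1* 266 and 198 CPM, and PD-L1 (*Cd274*) 262 and 178 CPM. In LCs, *Cd40* (693 against 299 CPM) and *Cd274* (114 against 45.2 CPM) were past 2-fold higher, and *Icosl*, named after its value was seen, was past 2-fold lower (94.6 against 191 CPM), beside 3.93% of all genes higher and 2.27% lower.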

How the data were processed

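Naive and papain cells (1 library each, grouped by the treatment label) were measured with a 3′ droplet kit. Per the labels, the submitters' processing notes name Cell Ranger 3.0.1, Partek and the build mm10. The authors deposited log2 values of CPM + 1 per cell and gene, and antibody values on a natural log scale, relative to the geometric mean of the 12 antibodies of a cell. Their filters on cells and genes are not given in the sources used here. UMIs were read back from the log2 values, in each cell as whole multiples of its smallest step (100% of values up to 50 UMIs whole within 0.02). UMIs were summed over the cells of each class of the authors, and ratios were taken of CPM + 1, with exact conditional binomial intervals. Cells are not replicates, so no test was made. A floor is 3 UMIs, and no fold was taken where both groups were at or under it. No doublet caller was run, and cells with T or B cell transcripts were left out as an alternative. Genes were named by rule: the members, the 3 highest of each pathway list in papain cDC2s, list genes past 2-fold there, and the 3 genes most alike. The members and lists were chosen with earlier results of these data known. The intervals were tested on simulated Poisson counts and the thinning on simulated cells. Poisson counts do not gather in some cells, so this does not show that the intervals hold for these data. Python 3.11.15 was used with NumPy 2.4.6 and SciPy 1.17.1.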

Additional observations from a re-analysis of the deposited data

Results flagged for a closer look

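The level of *Tnfsf9* differed in opposite directions by DC class between the libraries. The papain to naive log2 ratio was 0.91 in LCs and 0.15 in CD301b-int cDC2s, against -0.23 in CD301b-lo and -0.092 in CD301b-hi cDC2s. In CD301b-hi cells the share with a *Tnfsf9* UMI went the other way, from 52.5% in naive to 59.1% in papain cells. At equal depth it was 45.5% (41.7 to 49.5) and 49.6% (47.7 to 51.4). No direction is therefore given for CD301b-hi cells. With 1 library per condition the difference between classes was not tested.

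Ligand UMIs were also found in cells that the authors put in no class, above the floor of 3 UMIs. In naive cells of no class without T cell transcripts, *Tnfsf4* had 5.82 CPM, *Tnfsf9* 117 CPM, *Cd70* 13.0 CPM and *Tnfsf13b* 1.81 CPM. The 49 papain cells of this kind had 124 CPM of *Tnfsf9* and 12.2 CPM of *Cd70*. In cells of no class with T cell transcripts, *Tnfsf9* had 36.2 CPM in the naive and 14.97 CPM in the papain library, *Cd70* had 3.45 CPM in the naive library, and *Tnfsf10* had 6.46 CPM in the naive and 3.74 CPM in the papain library. The 192 naive cells without T cell transcripts were deep, with a median of 27043.5 UMIs.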

How the results depend on the processing

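Of 257 alternatives for the papain to naive ratios 243 gave a value within the counting interval of the main ratio, 12 moved outside it and 2 reversed the direction. A reversal was counted only where the main interval left out 0. Over all cDC2s, *Tnfsf9* (log2 ratio 0.06) reversed to -0.0063 after scaling to the median ratio of all genes and to -0.056 with equal weight for each CD301b class. *Tnfsf4* (-1.18) moved to -0.94 with equal weights. With a pseudocount of 10 CPM the ratios were -0.51 for *Tnfsf4*, 0.30 for *Cd70* (0.51) and -0.13 for *Tnfsf13b* (-0.68), since a larger pseudocount shrinks low genes. Scaling shifted all genes by at most 0.10 on the log2 scale. Of 423 alternatives for ratios between classes 396 kept the value and 27 moved it, with none reversed. Shares of cells moved more often, in 89 of 120 alternatives. With the larger pseudocount, 0.978% of genes were past 2-fold higher and 2.15% lower in papain cDC2s. No paired analysis was possible because each condition has 1 library, and for the same reason no replicate could be left out. Depth limits *Tnfsf10* and *Tnfsf13b*, and the CD301b quintiles, the mRNA clusters and the comparison of cells with and without a ligand UMI were added after seeing the data.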

Other observations

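Cells with and without a UMI of a ligand were compared within 1 class, and genes of at least 50 CPM in either set were kept when they were past 2-fold in the same direction in both libraries. This rule was chosen after seeing the data. CD301b-hi cDC2s with a *Tnfsf9* UMI (371 naive and 1709 papain cells) had 12 of 2359 genes higher and 0 lower than those without (336 and 1184 cells). The 8 with the largest folds, ordered by the smaller of the naive and papain fold, are given. *Il12b*, the p40 subunit of IL-12 and IL-23, had 225 against 69.6 CPM in naive and 51.5 against 16.8 CPM in papain cells. *Bcl2l1*, which encodes the survival factor Bcl-xL, had 72.9 against 21.1 CPM and 162 against 55.1 CPM, and *Ebi3*, a subunit of IL-27, had 80.7 against 22.6 CPM and 111 against 37.5 CPM. The immediate early gene *Egr1* had 339 against 117 CPM and 266 against 55.3 CPM, and *Socs3*, an inhibitor of cytokine signalling, 64.0 against 19.5 CPM and 76.8 against 27.3 CPM. *Tnf* had 118 against 46.4 CPM and 51.7 against 17.1 CPM, the chemokine gene *Ccl17* 566 against 218 CPM and 1079 against 433 CPM, and the proliferation marker *Mki67* 99.2 against 36.1 CPM and 147 against 64.3 CPM. Cells with a *Tnfsf9* UMI were somewhat deeper, with a median of 16969 against 13949.5 UMIs in naive and 17246 against 14744 UMIs in papain cells.

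*Cd70*-positive CD301b-hi cells (64 naive and 386 papain) had 3 genes higher, *Tnfsf9*, *Bcl2l1* and *Ebi3*. *Tnfsf9* itself had 470 against 175 CPM in naive and 382 against 159 CPM in papain cells. In CD301b-lo cDC2s with a *Tnfsf4* UMI (55 naive and 67 papain cells), 4 of 2411 genes were higher and 7 lower. *Procr*, the endothelial protein C receptor, had 124 against 32.6 CPM in naive and 51.8 against 16.2 CPM in papain cells, and *Cd8a* had 149 against 58.2 CPM and 109 against 25.3 CPM. *Arap2* and *Gpr65* were the other genes higher. *Lyz2*, the lysozyme of myeloid cells, was lower, with 125 against 710 CPM in naive and 4.98 against 83.8 CPM in papain cells. *Aif1*, *Vcam1*, *Hist1h2ap*, *Rasa4*, *Rrad* and *Lmo4* were lower too. These sets are cells of 1 library each and carry no test.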
